A study of Mus musculus with 4 samples.

Results

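Noncoding host genes of small nucleolar RNAs (snoRNAs) were followed in mouse embryonic fibroblasts (MEF cells) that were exposed to genistein, a plant isoflavone. The genes were Gas5, Snhg1, Snhg3, Snhg5, Snhg6, Snhg8, Snhg12, Snhg15 and Snhg17. They were taken by symbol from the deposited count table, where all 9 symbols matched 1 of 47937 gene rows each. Both groups were cells that the labels give as MEF, and 2 libraries were untreated while 2 came from cells kept with 50 µM genistein for 24 h. The untreated cells are labelled wild-type. The labels do not give the genotype of the treated cells in other words than their treatment, and they do not say whether the untreated cells received the solvent. Nothing in the labels says that the 2 libraries of a group came from separate cultures. The p-values therefore rest on a spread between libraries, estimated in part over all entries, that may be technical.

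On GRCm38 the genes span chr1:161034422-161038539 (Gas5, ENSMUSG00000053332), chr19:8723475-8726443 (Snhg1, ENSMUSG00000108414) and chr4:132348014-132353686 (Snhg3, ENSMUSG00000085241). Snhg5 (ENSMUSG00000097195) spans chr9:88521050-88522929, Snhg6 (ENSMUSG00000098234) chr1:9941959-9944118 and Snhg8 (ENSMUSG00000104960) chr3:123507552-123508404. Snhg12 (ENSMUSG00000086290) spans chr4:132308623-132311024, Snhg15 (ENSMUSG00000085156) chr11:6525591-6528760 and Snhg17 (ENSMUSG00000085385) chr2:158353700-158361580. Gas5, Snhg1 and Snhg12 lie on the + strand and the other genes on the - strand.

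A snoRNA host gene is transcribed and spliced, and the snoRNAs are trimmed out of the excised introns. Box C/D snoRNAs then guide methylation and box H/ACA snoRNAs guide pseudouridylation of ribosomal RNA. The spliced exons of these hosts code for no long protein. Some hosts of this kind are known to start with a terminal oligopyrimidine (TOP) tract like the mRNAs of ribosomal proteins. Some are also known to be read by ribosomes and removed by nonsense-mediated decay. Gas5 owes its name, growth arrest-specific 5, to its accumulation in fibroblasts that stop growing.

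The starts of these genes are shown first, since the TOP start is what the genes were listed for. RefSeq promoter windows on GRCm38.p6 were found for 8 of the 9 genes, and Snhg6 was not among them. Each line gives 10 bases before the annotated start and 20 bases from the start on, 5′ to 3′ on the strand of the gene. Capitals mark a C followed by at least 4 C or T, searched on the strand of the gene only and with its first base at most 10 bases from the start.
Gas5, first start (chr1:161034591-161034620, + strand): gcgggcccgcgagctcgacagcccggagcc
Gas5, second start (chr1:161035156-161035185, + strand): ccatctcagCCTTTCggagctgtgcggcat
Snhg1 (chr19:8723477-8723506, + strand): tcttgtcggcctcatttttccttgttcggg
Snhg3 (chr4:132353667-132353696, - strand): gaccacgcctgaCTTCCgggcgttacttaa
Snhg5 (chr9:88522878-88522907, - strand): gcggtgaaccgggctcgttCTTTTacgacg
Snhg8 (chr3:123508317-123508346, - strand): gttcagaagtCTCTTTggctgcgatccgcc
Snhg12 (chr4:132308668-132308697, + strand): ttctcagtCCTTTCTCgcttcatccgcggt
Snhg15 (chr11:6528741-6528770, - strand): ctgtgaccgtaactttaagcacacgtgagc
Snhg17 (chr2:158361490-158361519, - strand): aagaccacagtttcctgtcgcgtggatgtg

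Such a tract lay near an annotated start of 5 of the 8 genes, namely Gas5, Snhg3, Snhg5, Snhg8 and Snhg12. Snhg17 has another annotated start (window chr2:158361503-158361532, - strand), not printed above, which also held none. Over all 27025 genes with a promoter window, 32.6% held one. Of a list of other TOP mRNAs, mostly of ribosomal proteins and translation factors, 24 of 37 genes with a window held one. Of a list of protein-coding snoRNA hosts, 6 of 25 genes (24%) did, a lower share than over all genes. The search says only which letters stand at annotated starts, which can lie some bases from the start used in these cells. The letters CACGTG, an E-box, stood in the 300 bases around the start of 1 of the 8 genes, Snhg15, and in 8.09% of all genes.

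All 9 host genes fell with genistein. In the fit over all genes and repeats, each had an adjusted p-value under 0.05 and a level in each genistein library that was under both untreated ones (quasi-likelihood test of edgeR, Benjamini-Hochberg adjustment). Of the 16240 genes tested, 38.2% were called lower by the same rule and 44.6% were lower without overlap between the groups. The log2 fold changes (log2 changes below) of the 9 ran from -1.35 for Snhg5 to -0.20 for Snhg3 with a median of -0.81, against a median of -0.03 over all genes. Summed over the 9 genes, the normalised read count was 23804 and 24583 without genistein and 15126 and 15083 with genistein. A normalised read count is the count scaled to the mean effective library size. Since RNA was extracted in bulk, fewer cells with a transcript and less transcript per cell cannot be told apart.

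**Figure D1:**
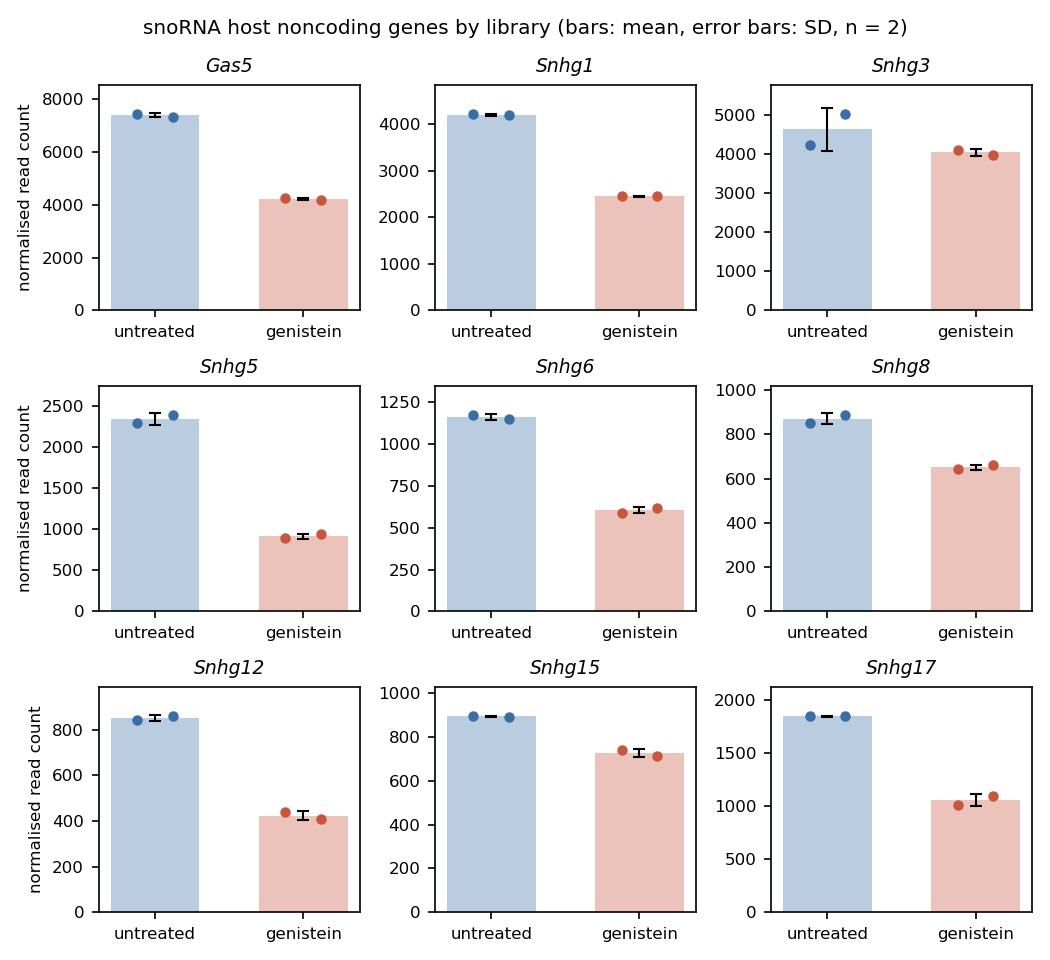
Normalised read counts (vertical axes, from 0) of the 9 host genes in the untreated (blue) and genistein (red) groups. Points are the 2 libraries of a group, bars their mean and error bars the SD. In every panel both genistein points lie below both untreated points, with the narrowest gap for Snhg3.

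The libraries held 28591958 to 31464284 counts over genes and repeats. Repeats took 11.97% and 12.5% of the counts without genistein and 14.6% and 13.6% with genistein, and mitochondrial genes 2.07% and 1.96% against 3.30% and 3.14%. Of 11 fibroblast markers 9 passed the filter, and their list summed to 14475 and 14867 CPM (counts scaled to the effective library size) without genistein and 14103 and 13795 with genistein, with Thy1 at 0 in all 4. The 5 epithelial markers summed to 15.1 and 15.4 CPM against 4.58 and 4.37, with Epcam and Krt5 at 0. The 4 endothelial markers summed to 0.835 and 1.03 CPM against 2.85 and 3.25, and the 5 leukocyte markers to 2.84 and 2.23 against 7.05 and 7.14, with Adgre1 and Cd3e at 0. The 5 neural markers summed to 30.6 and 28.7 CPM against 26.2 and 25.0, with Sox2 and Olig2 at 0. The part of these shifts in the results below was not tested.

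Snhg5, the host of the U50 snoRNAs, had the largest fall. Its normalised counts were 2291 and 2389 without genistein (2340.04 ± 69.9, SD, n = 2) and 894 and 937 with genistein (915 ± 30.9, SD, n = 2). The log2 change was -1.35 with an SE of 0.05 (adjusted p = 3.8e-13, edgeR), and the mean level fell by 60.9%. Of all tested genes, 2.66% had a more negative change. The groups lay far apart compared with the spread of their libraries.

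Snhg12, which carries 3 H/ACA snoRNAs and Snord99 in its introns, was second. Its counts were 841 and 861 without genistein and 439 and 409.9 with genistein, and the log2 change was -1.002 with an SE of 0.06 (adjusted p = 4.7e-10, edgeR). Snhg5 and Snhg12 were the 2 of 9 genes past all thresholds that the study used, an adjusted p under 0.05, a log2 change beyond 1 in size and a mean count over 100, and 4.16% of all genes were past them in this direction. Snhg12 stood at the edge of the fold threshold. Its value lay between -0.99 and -0.93 in 5 of the 11 alternative fits, those with library totals alone, with scaling from genes alone, with genes fitted without repeats, without untreated 2 and without genistein 2, and Snhg5 was then the 1 gene past the thresholds.

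Snhg6, the host of Snord87, followed. Its counts of 1174 and 1148 without genistein stood against 591 and 617 with genistein. The log2 change was -0.94 with an SE of 0.06 (adjusted p = 3.1e-10, edgeR). The level in each genistein library was thus near the midpoint between 0 and the untreated level.

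Gas5, Snhg1 and Snhg17 had closely similar changes. Gas5 had the most counts of the 9, with 7433 and 7330.4 without genistein and 4245 and 4195 with genistein. Its log2 change was -0.81 with an SE of 0.03 (adjusted p = 1.1e-12, edgeR). Snhg1, the host of U22 and its neighbours, had counts of 4223 and 4191 against 2451 and 2464, a log2 change of -0.78 with an SE of 0.03 (adjusted p = 6.4e-12, edgeR). Both libraries of each group lay within a few percent of each other for these genes. Snhg17, the gene with the longest span of the 9, had counts of 1846 and 1851 against 1016 and 1095, a log2 change of -0.81 with an SE of 0.05 (adjusted p = 3.0e-10, edgeR).

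Snhg8, Snhg15 and Snhg3 fell less. Snhg8, the host of Snora24, had counts of 854 and 888 without genistein and 642 and 659.9 with genistein, with a log2 change of -0.42 and an SE of 0.06 (adjusted p = 7.1e-06, edgeR). Snhg15, the host of Snora9, had counts of 894 and 889 against 738 and 714, with a log2 change of -0.30 and an SE of 0.06 (adjusted p = 0.00019, edgeR). In both genes the groups stayed apart, and the gap was several times the SD of each group.

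Snhg3, the host of the U17 snoRNAs (Snora73a and Snora73b), changed least. Its counts were 4249 and 5035 without genistein (4642 ± 556, SD, n = 2) and 4109.95 and 3991 with genistein (4051 ± 84.1, SD, n = 2). The untreated libraries differed from each other by more than untreated 1 differed from the genistein libraries. Snora73a overlaps an exon of 1 of the 5 annotated Snhg3 transcripts, so the Snhg3 counts may include reads of this snoRNA. The Snora73a row held 3566 and 4336 without genistein and 3864 and 3733 with genistein. What part of the Snhg3 counts is snoRNA was not tested. The log2 change was -0.20 with a 95% interval from -0.31 to -0.08 (adjusted p = 0.0046, edgeR). The call was lost in DESeq2 (-0.22, adjusted p = 0.12) and without untreated 2 (-0.07, adjusted p = 0.13, edgeR), while it was -0.32 without untreated 1. For the other 8 genes all 11 alternative fits kept the direction and the call.

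**Figure D2:**
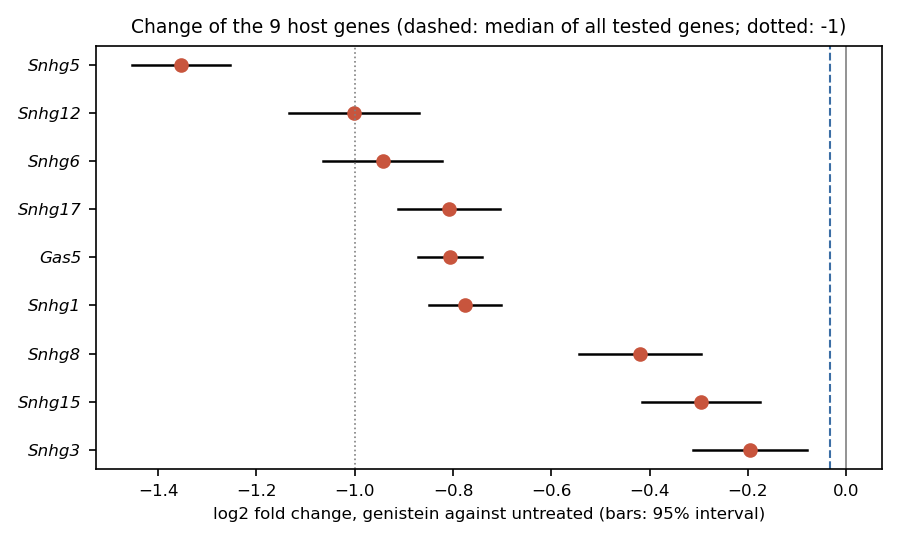
Log2 fold change between genistein and untreated libraries (horizontal axis) of the 9 host genes, ordered from the most negative. Points are edgeR estimates and bars their 95% intervals, which for all 9 genes lie below 0. The dashed line is the median of all tested genes at -0.03 and the dotted line is at -1.

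Levels of different genes were compared per kilobase of annotated exon, as CPM per kilobase. The exon lengths came from a later Gencode release than the one used for counting, and exons may differ between them. The exon length is the union over all annotated transcripts, among them many that keep introns (20 of 25 transcripts of Gas5 and 14 of 18 of Snhg1), so it overstates the spliced length of those genes. In the untreated libraries Snhg3 was highest at 144 and 171, followed by Gas5 at 66.1 and 65.2. Snhg1 at 47.5 and 47.2 and Snhg5 at 44.3 and 46.2 came next. The Snhg3 level may include reads of Snora73a, which overlaps one of its annotated exons. Snhg8 (33.5 and 34.8) and Snhg6 (34.2 and 33.5) overlapped and did not differ beyond their spread. Snhg15 (22.0 and 21.9), Snhg12 (11.7 and 11.98) and Snhg17 (8.75 and 8.77) were lowest. In the genistein libraries Snhg3, Gas5 and Snhg1 were again the highest in that order, Snhg8 (25.2 and 25.9) came next, and Snhg5 (17.3 and 18.1), Snhg6 (17.2 and 18.0) and Snhg15 (18.2 and 17.6) overlapped. Per kilobase of annotated exon, Snhg5 thus stood above Snhg15 in untreated cells and overlapped with it after genistein. The order turned on the length, at its top and in its middle. Levels were also taken per kilobase of 1 spliced transcript without retained introns, a length chosen after the data were seen. All counts of the gene row were kept, also any from retained introns. This scale can therefore overstate the level of spliced RNA, as for Gas5. On it, Gas5 (502 bases) stood at 495 and 488 without genistein and Snhg3 (437 bases) at 325 and 385. With genistein Gas5 stood at 283 and 279 on that scale and Snhg3 at 314 and 305. Snhg15 (59.9 and 57.9) then lay above Snhg5 (29.8 and 31.2) in the genistein libraries, without overlap. In the untreated libraries Snhg6 (83.0 and 81.1) lay above Snhg8 (63.7 and 66.3).

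The genes with the profile nearest to Gas5 were sought among 16231 tested genes outside the 9, by the distance between centred log2 CPM values over the 4 libraries. They were Dnajc11, Bola1, Cdca4, Mettl16 and Urb2, at distances of 0.0094, 0.011, 0.012, 0.014 and 0.014 and with log2 changes of -0.82, -0.86, -0.82, -0.81 and -0.80. Among the 9 genes, Gas5 and Snhg1 were nearest to each other at 0.038.

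The snoRNAs inside these genes have rows of their own in the table. The annotation places 33 snoRNA rows within the spans of the 9 genes on the same strand, at 31 separate places. Among them, 32 passed the filter, 25 were called lower, 1 was called higher and 6 were not called (edgeR, adjusted p under 0.05 over all entries). The share of all genes called lower was 38.2% and the share called higher was 33.5%. All of the rows but Snora73b and Snord87 overlap an annotated exon of their host. Counts per row therefore cannot tell a mature snoRNA from unspliced host RNA, and how reads in overlapping rows were divided is not given in the sources used here.

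Some of the snoRNAs are shown because their rows mark the extremes or are nearly alike in sequence. They are given 5′ to 3′ as DNA from the annotation on GRCm38. Capitals mark the C box (TGATGA) and D box (CTGA) in box C/D snoRNAs and the ACA box near the end of H/ACA snoRNAs.
Snord80 inside Gas5 (chr1:161037604-161037680, + strand): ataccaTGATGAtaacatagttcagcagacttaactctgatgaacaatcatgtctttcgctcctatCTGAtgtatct
Snord50a inside Snhg5 (chr9:88521529-88521600, - strand): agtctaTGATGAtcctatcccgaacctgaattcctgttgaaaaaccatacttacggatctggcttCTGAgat
Snord50b inside Snhg5 (chr9:88521797-88521868, - strand): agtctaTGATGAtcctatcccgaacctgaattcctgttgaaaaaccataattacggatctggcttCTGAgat
Snora73b inside Snhg3 (chr4:132352322-132352526, - strand): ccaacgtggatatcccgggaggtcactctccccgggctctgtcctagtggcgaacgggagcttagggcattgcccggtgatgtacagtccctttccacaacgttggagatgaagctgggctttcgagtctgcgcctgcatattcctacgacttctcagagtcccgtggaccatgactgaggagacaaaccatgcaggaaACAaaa

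Inside Gas5, all 9 tested rows fell, by log2 changes from -1.45 to -0.70 with a median of -1.12. The Snord80 sequence printed above had the most negative value. Its counts were 138 and 145 without genistein and 50.6 and 52.6 with genistein (log2 change -1.45, SE 0.15, adjusted p = 2.4e-07, edgeR). A second row overlaps it at the same place, under the same symbol, and with 1 to 5 raw counts per library it was not tested. Summed over the rows in Gas5, counts were 2136 and 2221 against 1056 and 1097. Snord78 and Snord47 fell by 1.23 and 1.11 on the log2 scale.

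Inside Snhg1, 7 of 8 rows fell, by log2 changes down to -1.40. The exception was Snord22, or U22, which is needed for processing of 18S ribosomal RNA. Its counts were 368 and 461 without genistein and 387 and 384 with genistein, and the log2 change was -0.10 (adjusted p = 0.35, edgeR). The groups overlapped. Without untreated 1 its value was -0.26 (adjusted p = 0.021, edgeR), and without untreated 2 it was 0.06 (adjusted p = 0.60, edgeR).

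The rows in Snhg5 were Snord50a, with counts of 41.0 and 47.6 against 31.9 and 29.4, and Snord50b, with counts of 67.9 and 76.2 against 30.01 and 33.4. Their log2 changes were -0.53 (adjusted p = 0.047, edgeR) and -1.18 (adjusted p = 6.1e-05, edgeR). The 72 bases of the pair differ by 1 substitution, C50A, counted from the 5′ end of Snord50a, so the share of reads that belongs to each is uncertain. The call of Snord50a was lost in 8 of 11 alternative fits. The counts of both rows together were 109 and 124 against 61.9 and 62.8.

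Neither row in Snhg3 was called lower. Snora73b had counts of 2240 and 3958 without genistein and 4001 and 3848 with genistein. Only untreated 1 was low, and untreated 2 lay within the range of the genistein libraries. The log2 change was 0.34 with an SE of 0.15 (adjusted p = 0.046, edgeR), and without untreated 1 it was -0.02 (adjusted p = 0.76, edgeR). DESeq2 did not call it (adjusted p = 0.56). Snora73a had counts of 3566 and 4336 against 3864 and 3733, a log2 change of -0.06 (adjusted p = 0.42, edgeR). The Snora73 copies share 198 of 205 aligned bases, so reads may have been split between them. Without untreated 1, Snora73a was called lower at -0.20 (adjusted p = 0.00019, edgeR), and without untreated 2 it was 0.09 (adjusted p = 0.079, edgeR). Snhg3 itself was also lower in untreated 1 than in untreated 2.

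The remaining 11 rows lay in Snhg6, Snhg8, Snhg12, Snhg15 and Snhg17. Snord87 in Snhg6 had counts of 46.0 and 60.3 against 29.1 and 17.2, a log2 change of -1.18 (adjusted p = 0.00086, edgeR). Snora24 in Snhg8 had counts of 99.9 and 103 against 50.6 and 47.6, a log2 change of -1.04 (adjusted p = 2.9e-05, edgeR), while its host differed by -0.42. In Snhg12, Snora61, Snord99 and both overlapping Snora16a rows fell by log2 changes from -1.31 to -1.03, and Snora44 differed by -0.34 (adjusted p = 0.18, edgeR). Snora44 was called lower without untreated 1 (-0.58, adjusted p = 0.037, edgeR) and was at -0.08 without untreated 2. Snora9 in Snhg15 had counts of 93.9 and 154 against 113 and 105, a log2 change of -0.17 (adjusted p = 0.40, edgeR). It was called lower without untreated 1 (-0.50, adjusted p = 0.0036, edgeR) and had the other sign without untreated 2 (0.21, adjusted p = 0.28, edgeR). In Snhg17, the row Gm26003 fell by 1.11 on the log2 scale, and Gm24411 and Gm23925 differed by -0.45 and -0.11 without a call. Gm23925 was near 0 without untreated 2 (0.0035) and without genistein 2 (0.021).

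Sorted by annotated length, all 20 tested rows under 100 bases were called lower, with log2 changes from -1.45 to -0.53. Among the 12 rows of 113 to 205 bases, 5 were called lower, 1 was called higher and 6 were not called. Both overlapping Snora16a rows, with nearly the same counts, were among the 5. Over all tested genes, 38.2% were called lower and 33.5% higher, so the share called lower among the longer rows was not far from that of all genes. This division was made after the values were seen and was not tested. Apart from Snord22, the longer rows were H/ACA snoRNAs, and no H/ACA snoRNA was among the shorter rows. Length and class of snoRNA therefore cannot be told apart here. The longer rows also had less similar untreated libraries, with a median ratio of untreated 2 to untreated 1 of 1.19 against 1.05 for the shorter rows. In the genistein libraries the ratios of library 2 to library 1 were 0.964 and 1.03. Whether the recovery of small RNAs differed between libraries was not tested.

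**Figure D3:**
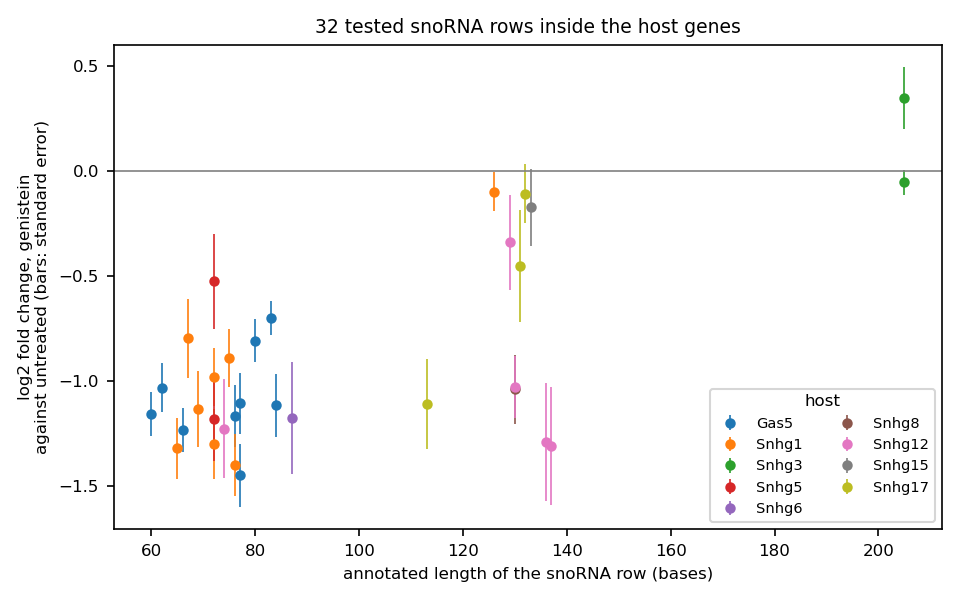
Log2 fold change between genistein and untreated libraries (vertical axis, bars are standard errors) of the 32 tested snoRNA rows against their annotated length in bases (horizontal axis), coloured by host gene. All rows under 100 bases lie below 0, and the 12 longer rows spread from -1.31 to 0.34.

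Genes beside or across the hosts were examined because the strand setting of the counting is not given. Zbtb37 starts 427 bases from the annotated start of Gas5 on the other strand. Its span overlaps that of Gas5 by 428 bases, with no shared exon base. Zbtb37 rose from 1529 and 1581 to 2053 and 2018 (log2 change 0.39, SE 0.04, adjusted p = 3.6e-07, edgeR). Slc3a2, the heavy chain of amino acid transporters at the plasma membrane, starts 106 bases from Snhg1 in the other direction. Its counts were 3058 and 3078 against 3644 and 3474, a log2 change of 0.21 (adjusted p = 5.7e-05, edgeR). Both neighbours thus rose while the host beside them fell.

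Rcc1, the nucleotide exchange factor of the GTPase Ran, starts 81 bases from Snhg3 on the same strand. It overlaps 5592 of the 5673 bases of Snhg3 and shares 135 exon bases with it. Its counts were 2489 and 2521 without genistein and 911 and 913 with genistein, a log2 change of -1.46 with an SE of 0.04 (adjusted p = 5.4e-14, edgeR). Rcc1 and Snhg3 rows therefore differed widely in their changes although they overlap. The antisense gene Gm17300 at Snhg3 had 8 to 15 raw counts (log2 change 0.56, adjusted p = 0.26, edgeR). Mcmdc2, which overlaps Snhg6, had no counts. At the snoRNA row Gm23925 a noncoding gene of the same symbol had nearly the same counts as the snoRNA row, with a log2 change of -0.09 (adjusted p = 0.57, edgeR).

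Lists of related genes were set beside the 9 hosts, without a test of the difference between lists. For each list, the shares over all tested genes to hold beside its counts are 38.2% called lower and 33.5% called higher. Of 16 genes listed as other noncoding snoRNA hosts, 12 were matched to a gene row and 11 of these were tested. Snhg4, Snhg7, Snhg10 and Snhg16 were not matched. Of the 11, 8 were called lower and 3 higher, with a median log2 change of -0.43. Whether each listed gene carries a snoRNA itself was not checked. The lowest were 1110038B12Rik and Epb41l4aos, with -1.27 and -1.26, and Zfas1 and Dancr had -1.05 and -1.26. The 3 higher genes were the imprinted genes Meg3, Snhg14 and Rian, with 1.08, 0.51 and 0.28. Meg3 had counts of 347 and 389 against 789.5 and 766 (adjusted p = 6.1e-10, edgeR).

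Protein-coding hosts of snoRNAs fell too. All 38 listed genes were tested, 37 were called lower and none was called higher, with a median of -0.53. The lowest were Dkc1, the pseudouridine synthase of H/ACA particles, at -1.73 and Nop56, a core protein of C/D particles, at -1.62. Prpf39 and Eef2 were the least changed among the called, at -0.14 and -0.10, and Tpt1 differed by 0.06 (adjusted p = 0.12, edgeR). Of 52 other TOP mRNAs 48 were called lower and 1 higher, with a median of -0.52. Rps27a and Rps6 had -1.22 and -1.12, values that are uncertain since ribosomal protein genes have many processed copies in the genome. Eef1a1 had -0.08, and the poly(A)-binding protein gene Pabpc1 was the higher one at 0.18.

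Genes for proteins of the snoRNA particles and their assembly were all called lower, 19 of 19, with a median of -1.17. Besides Dkc1, Nop56 and Nop58, which are snoRNA hosts themselves, the methyltransferase gene Fbl had counts of 1173 and 1135 against 457 and 462, a log2 change of -1.33 (adjusted p = 6.8e-12, edgeR). The least changed were Tgs1 at -0.21 and Pih1d1 at -0.40.

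Of 20 factors of nonsense-mediated decay, 13 were called lower and 3 higher, with a median of -0.35. The lowest were Magohb and Eif4a3, proteins of the exon junction complex, at -1.20 and -1.10. Upf1, the central helicase of the pathway, had counts of 4080 and 4021 against 2352 and 2273, a log2 change of -0.81 (adjusted p = 6.6e-12, edgeR). Smg6 and Xrn1, nucleases that cut and digest the targets, rose by 0.44 and 0.32, and Pnrc2 was the third higher gene at 0.27.

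Of 26 genes for the mTOR pathway and translation of TOP mRNAs, 11 were called higher and 12 lower, with a median of -0.07. Over all tested genes the shares were 33.5% and 38.2%. The most raised were Sesn2 and Ddit4, both known inhibitors of mTOR complex 1, at 2.09 and 2.05. Sesn2 had counts of 480.5 and 444 against 1973 and 1977 (adjusted p = 1.5e-14, edgeR), and Ddit4 had 466 and 464 against 1969 and 1890 (adjusted p = 1.5e-14, edgeR). The lowest were Cnbp at -1.19 and the cap-binding protein gene Eif4e at -0.90. Larp1, whose protein binds TOP starts, had -0.59.

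**Figure D4:**
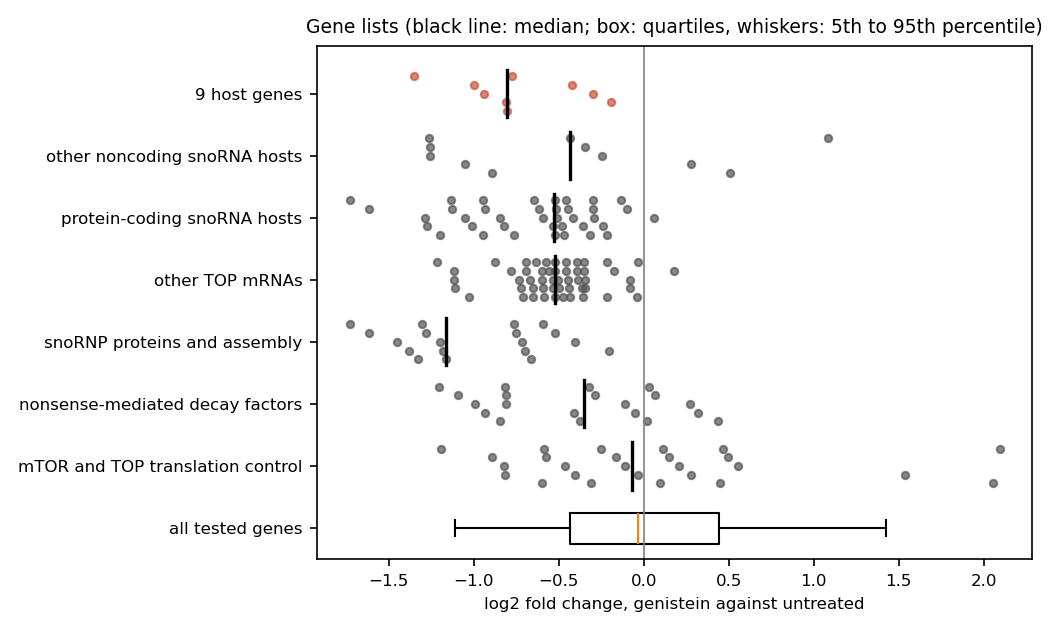
Log2 fold change between genistein and untreated libraries (horizontal axis) of each tested gene of 7 lists, one point per gene, with the median as a black line. The box at the bottom gives the quartiles of all 16240 tested genes. The 9 host genes, in red, lie between -1.35 and -0.20, and the list of mTOR and TOP translation control spreads to both sides of 0.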

How the data were processed

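The authors sequenced total RNA of 4 libraries after ribosomal RNA depletion with a stranded kit, used Trim Galore for trimming and STAR for alignment to mm10, and counted them with TEtranscripts over Gencode M9 genes and repeats. The deposited values are raw counts. One row that named no gene, 0.00208% to 0.00314% of a library, was left out.

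Counts of genes and repeats were fitted together with edgeR 4.0.16 in R 4.3.3 (filterByExpr, TMM scaling, quasi-likelihood test, adjustment by Benjamini and Hochberg over 17358 entries). A standard error is the log2 fold change divided by the square root of F. With 2 libraries against 2, an exact permutation test cannot go below p = 0.333. Intervals and p-values rest on the spread between libraries. That spread was estimated in part over all entries together, and not from the 2 libraries per group of each row alone. Snora73b, with 2240 and 3958 in the untreated libraries, thus still had an SE of 0.15. Replicates differed beyond sampling noise (chi-square over its degrees of freedom, 5.89 untreated and 13.2 genistein). On simulated counts with 196 of 17042 entries changed by 2-fold, 171 were called, and 13 unchanged entries. In the data far more genes were called, 38.2% lower and 33.5% higher. The simulation therefore says little about recovery and false calls in these data.

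Coordinates, exon lengths and snoRNA rows came from GENCODE M21 on GRCm38. Since the counts were made over Gencode M9, lengths and exon overlaps may differ from those that were counted. Named are the 9 genes, tested snoRNA rows and neighbours, the extremes of each list by log2 fold change among called genes, and the 5 genes nearest to Gas5. Zfas1, Dancr, Rian, Tpt1, Nop58, Fbl, Upf1, Pnrc2 and Larp1 were added after their values were seen. The 9 genes and the lists were chosen with earlier results of these data known. Alternatives were other scalings, no filter, genes alone, DESeq2 1.42.0, leaving out each library, and a replicate block.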

Additional observations from a re-analysis of the deposited data

How the results depend on the processing

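The number of host genes called lower was 9, and it stayed from 8 to 9 under all 11 alternatives, with 8 in DESeq2 and without untreated 2, where Snhg3 lost its call. None was called higher under any of them. The number past the study's thresholds was 2 and became 1 with library totals alone, with TMM factors from genes alone and with genes fitted without repeats, and lay from 1 to 2 when any one library was left out. The median log2 fold change of the 9 was -0.81. It moved to -0.74, -0.76 and -0.76 in the same 3 fits, where the median of all genes was 0.04, 0.01 and 0.01, and it lay from -0.81 to -0.77 with one library left out. With the replicate block it was -0.81 with 9 genes called lower, and the deviations within the 2 pairs of equal number had a correlation of -0.03, which does not show a pairing. Apart from Snord50a, whose call was lost at an adjusted p of 0.062 (edgeR), the block changed no call of a host gene, a snoRNA row or a neighbour. With one library left out, Snora73b ranged from -0.017 (without untreated 1, reversed) to 0.81 (without untreated 2), and the median of the mTOR list from -0.11 (without genistein 1) to 0.023 (without genistein 2, reversed). The cause was not tested. Raw counts of 17 to 57 per library, as for Snord87, limit how well the smaller changes of snoRNAs can be seen.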
